A study of Mus musculus with 3 samples.

Results

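The 323 regions described here are the distal *Dali* peaks that lie inside gene bodies, out of 1427 peaks in all (22.6%). A peak was a member when its midpoint lay at least 10 kb from the nearest transcriptional start site (TSS) of a protein-coding transcript and when it shared at least 1 base with the span of a protein-coding gene of the GENCODE M1 annotation (mm9). Of the other peaks, 453 were equally distal but lay between genes, 291 lay 1 to 10 kb from a coding TSS and 360 lay within 1 kb of one. The rule used positions only, so that scores, widths and sequences of the members were free to vary, whereas their distances from a TSS and their overlap with genes were set by the rule. On either side of the limit, the members closest to it lay in *Eml6* (10090 bp from a coding TSS, score 8.09), *Tmem56* (10439 bp, score 17.51) and *Htra4* (10604 bp, score 16.89), and the gene-body peaks just short of it lay in *Rnf103* (9931 bp, score 19.13), *Dchs1* (9613 bp, score 15.25) and *Gm10787* (9602 bp, score 12.48).

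*Dali* is a long non-coding RNA expressed in neural cells, and in CHART-Seq such an RNA is captured from cross-linked chromatin with complementary biotinylated oligonucleotides, and the DNA that comes with it is sequenced. All samples came from N2A, an untreated mouse neuroblastoma line grown in serum, and 3 pull-downs were made, each from about 300000000 cells and 810 pmol of oligonucleotides. The study used 2 cocktails of 5 capture oligonucleotides and their pool of 10, and which of them each pull-down received is not given in the sources used here. Peaks were called against input DNA and against pull-downs with a *lacZ* oligonucleotide, and 1 list with 1 score per peak was deposited for the pull-downs together. This list holds no value per pull-down, no read counts and no expression values, so the depth is unknown, the neural identity of the cells could not be checked from marker genes, and no difference could be tested against the spread between pull-downs. Intervals below are 95% Wilson intervals over peaks and cover counting error only, since peaks are not replicates.

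Most of a mammalian gene body is intron. Introns of long genes hold many of the distal elements that regulate transcription, among them enhancers, which are bound by activators such as AP-1 and basic helix-loop-helix factors at E-boxes, and sites of CTCF, a zinc finger protein that marks the boundaries of chromatin loops. A peak inside a gene may therefore belong to an element of that gene, of a neighbouring gene, or of a transcript within it, and the position alone does not tell these apart.

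Of the words searched and found in members, the CTCF consensus had the highest ratio of its share in members to its share in their flanks, and exact matches are therefore shown first. Of 323 members, 18 held an exact match in the 500 bp around the midpoint, and the 10 with the highest scores are given here with 5 bases on either side, read 5′ to 3′ on the strand of the match (mm9). Capitals mark the 13 bases of the match.
*1700029H14Rik*, chr8:13551149-13551161, + strand, score 79.4: ctgaaCCACCAGAGGGCAccatc
*Rgnef*, chr13:98709027-98709039, − strand, score 29.08: cttcaCCACCAGATGGCGcccgt
*Plxna4*, chr6:32429500-32429512, + strand, score 28.04: tgtggCCAGCAGGTGGCAggctg
*Fancc*, chr13:63434085-63434097, − strand, score 26.05: tatggCCACTAGATGGCAcatac
*Fam129a*, chr1:153553402-153553414, − strand, score 23.82: aaaagCCACTAGATGGCAgaaga
*Eml6*, chr11:29785359-29785371, − strand, score 20.39: agaggCCACCAGAGGGCAgaagc
*1700112E06Rik*, chr14:23865800-23865812, − strand, score 16.36: cgtagCCACTAGAGGGCAgcatg
*Ttll11*, chr2:35762187-35762199, − strand, score 15.65: gaataCCACTAGGGGGCAgtaaa
*Aknad1*, chr3:108574190-108574202, − strand, score 14.69: tatagCCACCAGGGGGCAtcaga
*Pkig*, chr2:163545249-163545261, − strand, score 14.37: tgcacCCAGCAGATGGCGctccc
Matches lay on the strand of the host gene in 30 of 60 cases and on the opposite strand in 30, counting those with 1 mismatch.

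The word searched for AP-1, TGANTCA, and the E-box CAGCTG were each found in many members, and 32 members held both. Besides the consensus TGACTCA, the former takes in TGAATCA, as in *Spred2* below. Pairs were looked for only in intronic members and not on every chromosome, so the next counts are not out of all 32. In 26 of the members searched, the nearest pair fitted into a stretch of 200 bases. In 16 of these 26 the pair spanned at most 60 bases. The 5 of these 16 with the highest scores are shown, followed by 3 more in which the words overlapped or abutted, picked after their values were seen. Each is read on the + strand of mm9 with both words in capitals.
*Rab31*, chr17:66087432-66087488, score 35.81: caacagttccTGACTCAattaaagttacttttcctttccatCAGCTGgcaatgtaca
*Spred2*, chr11:19879542-19879602, score 31.83: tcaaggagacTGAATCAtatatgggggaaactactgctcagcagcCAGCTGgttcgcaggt
*4933407C03Rik*, chr8:119896042-119896083, score 29.09: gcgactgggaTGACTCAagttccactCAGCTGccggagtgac
*Adk*, chr14:22259208-22259252, score 26.69: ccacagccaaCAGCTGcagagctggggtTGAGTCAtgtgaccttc
*Agpat3*, chr10:77801073-77801103, score 25.92: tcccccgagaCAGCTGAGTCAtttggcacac
*Mreg*, chr1:72229715-72229745, score 18.13: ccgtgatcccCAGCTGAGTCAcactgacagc
*Oxr1*, chr15:41443929-41443961, score 24.12: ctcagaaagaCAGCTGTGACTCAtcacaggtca
*Slc18a2*, chr19:59364523-59364555, score 15.83: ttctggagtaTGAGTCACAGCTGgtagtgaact
In *Agpat3*, an acyltransferase of phospholipid synthesis, and *Mreg*, which takes part in melanosome transport, the words overlapped. In *Oxr1*, a gene of oxidative stress resistance, and *Slc18a2*, the vesicular monoamine transporter, they stood side by side. The spacing of the words was not compared with flanks.

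The capture oligonucleotides are DNA and can themselves anneal to genomic sequence, so exact matches to them are shown beside the peaks. The longest matches in members were 14 bases, to linc8-C-oligo30, in both members in *Atg4a*, followed by matches of 13 bases. The members in *Atg4a* were also the widest (3658 and 6458 bp), and matches were searched over the whole width, so more sequence was searched in them. The oligonucleotide is given first, with the 14 matched bases in capitals. Below it stand 5 stretches of members with the matched bases in capitals and up to 8 bases on either side, in the direction of the oligonucleotide.
linc8-C-oligo30: aatcctggtacACAGAGACAGAGGC
*Atg4a*, match at chrX:137531806-137531819, + strand: ggcagaggACAGAGACAGAGGCagagtggc
*Atg4a*, match at chrX:137585089-137585102, + strand: agcaaaagACAGAGACAGAGGCagaggggt
*Tln2*, match at chr9:67310926-67310938, − strand: agagacagACACAGAGACAGAcacagaga
*Auts2*, match at chr5:132506908-132506920, + strand: aaaggaagCACAGAGACAGAGcacaaaag
*Tcea3*, match at chr4:135816254-135816266, + strand: gcacacagACACAGAGACAGAcatacaga
In all 5 the matched bases lay in the 3′ part of the oligonucleotide.

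The central 200 bases of the 3 intronic members with the highest scores follow, on the + strand of mm9, with any match to the words searched here in capitals.
*Ahnak*, chr19:9127774-9127973, score 108.25: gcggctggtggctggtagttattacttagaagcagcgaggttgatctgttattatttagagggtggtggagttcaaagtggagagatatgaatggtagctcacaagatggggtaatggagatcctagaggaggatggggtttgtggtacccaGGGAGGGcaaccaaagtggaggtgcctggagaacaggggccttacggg
*Slc39a11*, chr11:113159229-113159428, score 84.31: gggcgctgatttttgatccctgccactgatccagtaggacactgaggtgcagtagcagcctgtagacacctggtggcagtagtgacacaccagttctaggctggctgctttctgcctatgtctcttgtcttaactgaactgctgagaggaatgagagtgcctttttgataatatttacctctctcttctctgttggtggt
*Cacna1c*, chr6:118674964-118675163, score 82.56: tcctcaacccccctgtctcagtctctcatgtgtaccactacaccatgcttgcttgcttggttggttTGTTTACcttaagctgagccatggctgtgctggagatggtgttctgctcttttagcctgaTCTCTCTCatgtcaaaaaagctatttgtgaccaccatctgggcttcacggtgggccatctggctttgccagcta
These central stretches held few of the words. *Ahnak* had 1 match to the MAZ word, *Cacna1c* had 1 match each to the FOX word and the GA repeat, and *Slc39a11* had none.

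The scores of the members ran from 7.29 to 108.25, with a median of 18.35 and a middle 50% from 13.5 to 25.3. The median was 19.75 for distal peaks between genes, 18.19 for peaks 1 to 10 kb from a coding TSS, 19.99 for peaks within 1 kb and 19.11 for all peaks. These distributions overlapped over nearly their whole range, as the plot of cumulative scores shows, and 153 of 323 members (47.4%, interval 42.0 to 52.8) reached the median of all peaks. Members were 230 to 6458 bp wide, with a median of 629 bp against 637 bp for all peaks. Within the members, the score showed little relation to width (Spearman's rank coefficient 0.093 across 323 peaks), distance from a coding TSS (0.023), host gene length (0.021) or GC content (-0.0066). These coefficients are across peaks of 1 list and are given as a description.

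**Figure D1:**
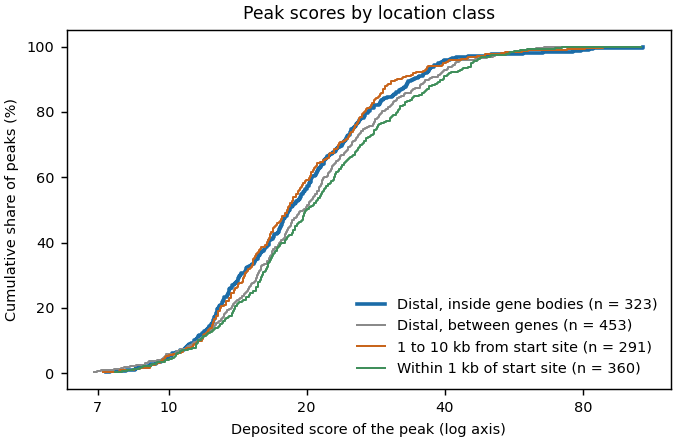
Cumulative share of peaks (%, vertical axis) by deposited score (log axis) for the 4 location classes, 1 line each. The line of the 323 distal gene-body peaks, median 18.35, runs close to those of the other classes, whose medians are 18.19 to 19.99.

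The member with the highest score of the whole list (108.25) lay at chr19:9127467-9128280 in intron 5 of *Ahnak*, a very large scaffold protein at the cell cortex. The next lay at chr11:113159034-113159624 in intron 8 of *Slc39a11*, a zinc transporter (84.31), and at chr6:118674821-118675306 in intron 9 of *Cacna1c*, the pore subunit of an L-type calcium channel (82.56). The fourth, at chr8:13550923-13551529, lay 0.493 kb before the 3′ end of *1700029H14Rik* (79.40), a gene of unknown function. *Ankrd17*, an ankyrin repeat protein (76.24), and *Sdccag8*, a centrosomal protein (65.38), came next. *Camk1d*, a calcium/calmodulin-dependent kinase, had a member with a score of 59.23 in its first intron, and *Immp2l*, a subunit of a mitochondrial inner membrane peptidase, had 1 of 50.53. The list of 10 was completed by *Rere*, a transcriptional co-regulator (49.13), and *Fstl1*, a secreted glycoprotein (45.03). Of the 10, 8 lay in introns and the members in *1700029H14Rik* and *Sdccag8* overlapped coding exons. Scores of 40 or more were found in 13 members (4.02%, interval 2.37 to 6.76) and in 93 of all peaks (6.52%).

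The widest members were both in *Atg4a*, a cysteine protease of the autophagy pathway on chromosome X, with 6458 bp (score 14.21) and 3658 bp (score 18.43). The other three of the 5 widest lay in *Gm20388* (2033 bp, score 15.32), *Inpp5f*, a phosphoinositide phosphatase (1653 bp, 17.41), and *Rab3c*, a small GTPase of synaptic vesicles (1632 bp, 12.74). None of the 5 reached the median score of all peaks. Widths under 1 kb were found in 278 members (86.1%).

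Distal gene bodies make up 720.4 Mb of mm9 and distal sequence between genes 1384 Mb. Members therefore had a density of 0.448 per Mb and distal peaks between genes 0.327 per Mb, a ratio of 1.37. GC content moved with this ratio. Where 500 bp of sequence had under 40% GC, density was 0.0374 per Mb inside genes (10 members) and 0.00774 between genes (5 peaks), a ratio of 4.83. The ratio was 1.57 at 40 to 45% GC and 1.14 at 45 to 50%. It then fell under 1, to 0.814 at 50 to 55% (1.81 against 2.22 per Mb) and to 0.567 at 55% or more (2.14 against 3.77 per Mb). So the ratio fell as GC content rose, from above 1 in the bins under 50% GC to below 1 in those above. No interval is given for the ratios by GC content, and those on either side of 50% were the closest to 1. These bins were chosen after seeing the data, the lowest rests on few peaks, and the part of GC content in the recovery of DNA was not tested. Territories here and below counted every known base, whereas the study kept only reads that aligned to a single place. The part of this in the densities was not tested.

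**Figure D2:**
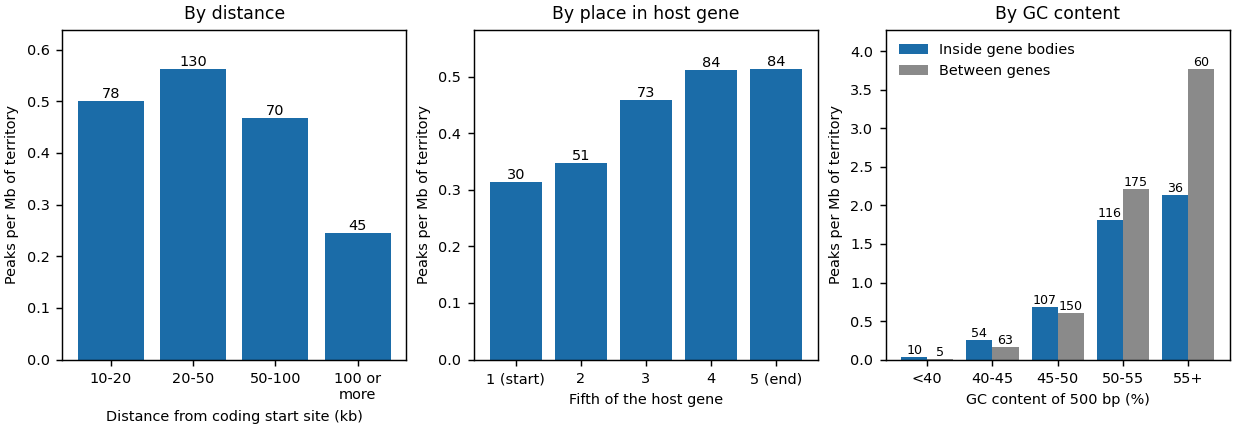
Peaks per Mb of territory (vertical axes) by distance from a coding TSS (kb), by place in the host gene cut into 5 equal parts, and by GC content of 500 bp (%), with the number of peaks above each bar. Density inside gene bodies rises from 0.0374 to 2.14 per Mb with GC content. It is above that between genes in the bins under 50% and below it in the others, without intervals.

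Along the distance from a coding TSS, density was 0.501 per Mb at 10 to 20 kb (78 members), 0.562 at 20 to 50 kb (130), 0.468 at 50 to 100 kb (70) and 0.245 beyond 100 kb (45). The value at 20 to 50 kb was the highest, close to that at 10 to 20 kb, and no interval is given. The GC content of these territories was 43.5%, 42.8%, 42.0% and 40.3%, and its part in these densities was not tested. By length of the host, density was highest in genes of 50 to 100 kb (0.598 per Mb, 72 members) and lowest in genes of 500 kb or more (0.242 per Mb, 39 members). The longest genes also had the lowest GC content, 40.1% against 43.1%. The furthest member, in *Ryr2*, a calcium release channel, lay 543.2 kb from any coding TSS, and the median distance was 34.8 kb. In 98 members (30.3%, interval 25.6 to 35.6) the nearest coding TSS belonged to a gene other than the host.

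Members were intronic in 296 of 323 cases (91.6%, interval 88.1 to 94.2). Coding exons were overlapped by 19, 3′ UTRs without coding sequence by 5 and non-coding exons by 3. The midpoint itself lay in an exon in 8 members (2.48%, interval 1.26 to 4.81) and in coding sequence in 6 (1.86%). Exons took 5.04% of the distal gene-body territory and coding sequence 2.27%. The 27 members that overlapped an exon had a median score of 23.8, against 18.07 for the 88 with their midpoint in a first intron and 18.33 for the 221 in later introns, groups that share some members. Among those over coding exons, *1700029H14Rik* (79.40) and *Sdccag8* (65.38) were followed by *Galntl6*, a glycosyltransferase-like gene (33.21), *Wdr92*, a WD repeat protein (33.19), and *Unc5c*, a netrin receptor (28.93). In *Sdccag8* and *Wdr92* the midpoint itself was coding. The lowest of the 19 was *Scara5*, a ferritin receptor (9.45).

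The start of the host held fewer members than its share of territory. The first 50% of the host's length held 118 members (36.5%, interval 31.5 to 41.9), where it held 44.0% of the distal gene-body territory. The rule itself removes the sequence around each coding TSS from this territory. With each host cut into 5 equal parts, density was 0.314 per Mb in the part at the start (30 members), 0.347 in the next (51), 0.458 in the middle (73), 0.512 in the fourth (84) and 0.513 at the end (84). GC content of these parts rose from 41.5% at the start to 42.9% at the end. By intron, 88 of the 309 members whose midpoint lay in an intron of the longest coding transcript were in intron 1 (28.5%, interval 23.7 to 33.8). First introns held 20.9% of such territory, giving 0.617 per Mb against 0.408 in later introns. Introns with members were long, with a median of 30.1 kb, and the midpoint was a median of 5.43 kb from the nearest exon. A longer intron also offers more distal territory, and these medians were not compared with those of the territory.

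The 323 members fell in 281 host genes, which is 2.37% of the 11834 protein-coding genes with distal territory. Of these hosts, 252 held 1 member, 24 held 2 and 5 held 3 or more. Hosts were long genes, with a median of 132.7 kb against 39.8 kb for all genes with distal territory; a longer gene also offers more distal territory. Only 8 hosts (2.85%) also had a peak within 1 kb of one of their own coding TSSs, where 258 of all genes with distal territory did (2.18%). Among the hosts with 3 or more members, *Mrps27* was the 1 with such a peak.

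The 5 hosts with 3 or more members are drawn along their lengths. *Gm20388* held 11, with scores from 15.32 to 38.63. This entry is a single gene model of 4435 kb on chromosome 8 that runs across many other genes, and 5 of its members also lay in *Gse1* or *Cbfa2t3*, the latter a transcriptional co-repressor, while 6 lay in no other coding gene. Without this model, 317 members remained, the ratio of densities was 1.33, first introns held 77 members (0.551 per Mb) and hosts of 500 kb or more held 28 (0.177 per Mb). *Slit3*, a secreted ligand of Robo receptors, had members 384.7, 475.0 and 480.8 kb from its start, with scores of 41.46, 9.95 and 39.21. *Slc39a11* had 84.31, 14.73 and 10.86 at 352.1, 297.4 and 256.2 kb, the highest being nearest to its 3′ end. *Rbms1*, an RNA-binding protein, had 36.87, 11.83 and 13.43, all in intron 1. *Mrps27*, a protein of the mitochondrial ribosome, had 17.71, 28.02 and 24.98 within 70.78 kb.

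**Figure D3:**
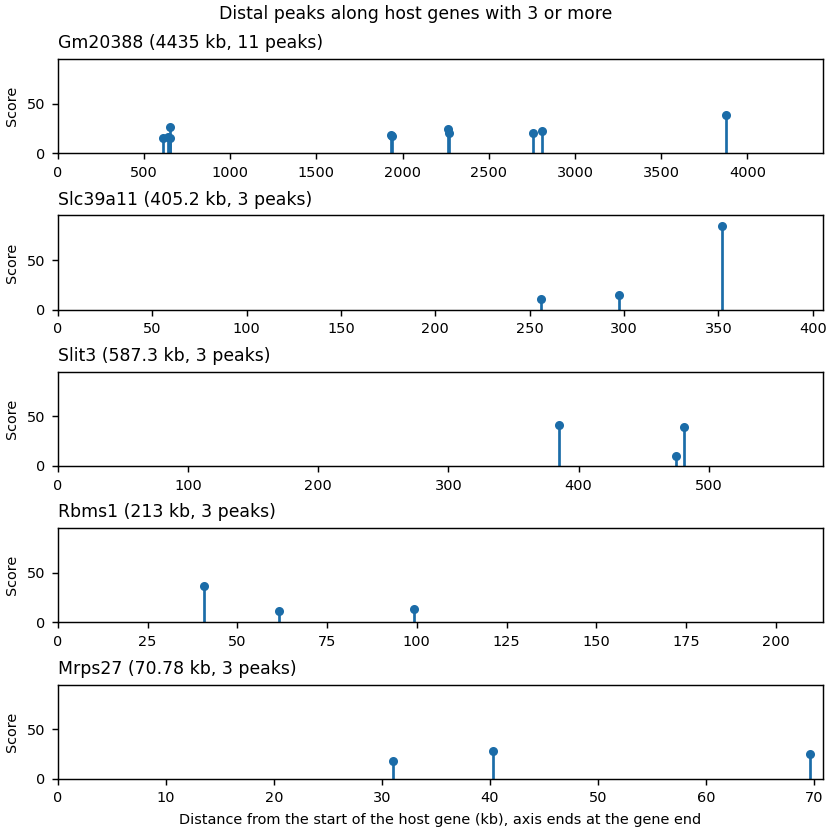
Score of each distal peak (vertical axis) against its distance from the start of the host gene (kb) in the 5 genes with 3 or more, each axis ending at the gene's end. *Gm20388* holds 11 peaks spread over 4435 kb, and the highest single score, 84.31, is in *Slc39a11*.

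Some members were close neighbours. In 12 pairs of neighbouring members the midpoints were under 10 kb apart, and all 12 pairs lay within 1 host. The closest were in *Camk4*, a calcium/calmodulin-dependent kinase (0.562 kb apart, scores 12.86 and 15.14), *Gm20388* (0.659 kb, 15.64 and 26.63) and *Dscaml1*, a neuronal adhesion molecule (0.758 kb, 26.15 and 15.43). *Th*, which encodes tyrosine hydroxylase, the rate-limiting enzyme of catecholamine synthesis, had members 2.51 kb apart with scores of 37.36 and 21.07, both in intron 1 of a gene model of 38.38 kb.

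By chromosome, members were densest on chromosome 8, with 35 members and 0.974 per Mb of distal gene body, and 29 members and 0.855 per Mb without *Gm20388*. Chromosome 11 followed with 0.779 and chromosome 2 with 0.682, which held the most members (38). Density was lowest on chromosome X, with 5 members and 0.148 per Mb. Distal peaks between genes were likewise densest on chromosome 8 (0.794 per Mb) and sparsest on chromosome X (0.0648 per Mb) among chromosomes with peaks. Chromosome Y held none.

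As the study is of neural cells, hosts were set against lists of neuronal and signalling genes. Of the 323 members, 54 lay in genes of the 10 lists, in 46 hosts. Together these lists took 16.7% of the members and 19.8% of the distal gene-body territory, a smaller share of members than of territory, and the difference was not tested. Cytoskeleton and motor genes had 10 members in 9 of 107 genes, 3.10% of members on 1.60% of the territory. They were led by *Ahnak* and went on with *Dst*, a spectraplakin (25.43), *Tln2*, a talin (24.05), *Myo5c*, an unconventional myosin (20.21), and *Diap1*, a formin (19.84). The list of kinases and phosphodiesterases of second messenger signalling also had 10 members, in 7 of 131 genes (3.10% on 2.47%). This list takes in other genes of such signalling, among the hosts *Plcb4*, *Akap7* and *Ryr2*, and no phosphodiesterase gene was a host. Besides *Camk1d* with 59.23 and 29.91, these included *Plcb4*, a phospholipase (33.08), *Dgki*, a diacylglycerol kinase (27.43 and 20.58), *Camk2d* (17.59) and *Akap7*, an anchoring protein for protein kinase A (17.51). In both lists the shares of members were above the shares of territory, and no test of the difference was run.

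Axon guidance genes had 7 members in 5 of 62 genes (2.17% on 1.48%), with a median score of 28.04. All members of the Slit family of secreted guidance cues were hosts, *Slit1* with 1 member (18.09), *Slit2* with 1 (12.35) and *Slit3* with 3. The others were *Unc5c* and *Plxna4*, a semaphorin co-receptor (28.04), and no Robo gene, which encode the Slit receptors, held one. Neuronal adhesion genes stood at the other end. These 84 genes took up 4.73% of the distal gene-body territory, the largest share of the 10 lists, and held 2 members (0.619%), both in *Dscaml1*. Glutamate and GABA receptors with their scaffold took 2.86% of the territory and held 4 members (1.24%), in the scaffold genes *Grip1* (25.00), *Dlg2* (23.18), *Magi1* (14.77) and *Magi2* (7.29), the lowest score of all members. These lists had low GC content in their distal territory, 39.5% for adhesion, 40.2% for receptors and scaffold and 40.7% for axon guidance, against 42.2% for all distal gene body, and the part of GC content in their counts was not tested.

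Voltage-gated ion channels had 3 members, in *Cacna1c* (82.56), *Kcnip3*, a potassium channel partner (18.91), and *Cacna1g*, a T-type calcium channel subunit (11.05). Splicing regulators had 3, in *Rbm20* (32.48), *Nova2* (13.88) and *Elavl2* (12.23). Wnt, TGF-beta, Notch, Hedgehog and FGF genes had 4, in *Acvr1c*, an activin-type receptor (27.41), *Fgfr2*, an FGF receptor (25.69), *Wnt3* (17.63) and *Apc*, a part of the β-catenin destruction complex (8.99). The *Fgfr2* model spans 3009 kb in this annotation, and the member, which also lay in *Tacc2*, was 2502 kb from its start. Per Mb of territory, these 3 lists ranged from 0.262 for ion channels to 0.649 for splicing regulators, around the 0.442 of all genes.

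**Figure D4:**
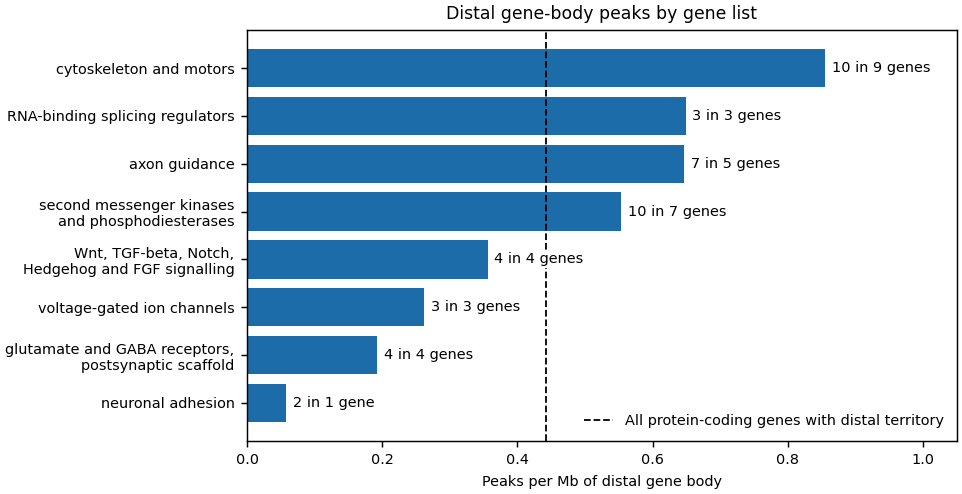
Distal gene-body peaks per Mb of the list's own distal gene-body territory (horizontal axis) for 8 of the 10 gene lists, with the number of peaks and of genes holding them beside each bar. The dashed line marks all protein-coding genes (0.442 per Mb), and the lists run from 0.058 for neuronal adhesion to 0.855 for cytoskeleton and motors.

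Members were richer in G and C than their surroundings. Their GC content ran from 36.9% to 61.7% with a median of 49.5%, against a median of 45.8% in flanks, the regions of equal width 5 kb to either side, which may themselves touch another peak. The member exceeded the mean of its flanks in 263 of 323 cases (81.4%, interval 76.8 to 85.3), with a median difference of 3.74 percentage points. Across all 500 bp windows of distal gene body the median was 42.0%. Members were not CpG islands. The ratio of observed to expected CpG had a median of 0.218, close to the 0.199 of flanks and far from the 0.643 of peaks within 1 kb of a coding TSS, and 1 member (0.31%) against 199 of 360 promoter peaks (55.3%) had both 50% GC and a ratio of 0.6. Other peaks away from promoters had similar medians. These were 49.9% GC and a ratio of 0.239 for distal peaks between genes, and 50.4% and 0.245 for peaks 1 to 10 kb from a coding TSS. Long runs of a dinucleotide repeat, 24 bp or more, were found in 13 members (4.02%, interval 2.37 to 6.76) and 74 of 644 flanks (11.5%, interval 9.25 to 14.2).

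A match to the CTCF consensus with at most 1 mismatch, on either strand of the central 500 bp, was found in 57 members (17.6%, interval 13.9 to 22.2). It was found in 18 of 644 flanks (2.80%, interval 1.78 to 4.37) and in 2.69% of all 500 bp windows of distal gene body. The intervals of members and flanks did not overlap, whereas distal peaks between genes held it as often (18.5%, interval 15.2 to 22.4). The exact word was found in 5.57% of members, 0.621% of flanks and 0.188% of windows. The share fell as GC content rose, from 21.9% in the 64 members under 45% GC to 11.1% in the 36 at 55% or more, each above the windows of the same GC content (2.31% and 4.60%). Within this window, CTCF matches lay a median of 75 bp from the midpoint (36 of 60 within 100 bp). The median was 108 bp for AP-1 matches (49 of 109) and 117 bp for E-box matches (68 of 161). These last were counted only where the window lay inside the peak, so the medians are not from equal windows. Median scores were 19.31 in members with the word, 18.22 in those without it and 14.53 with the exact word, whose highest score was that of *1700029H14Rik* printed above.

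AP-1, a dimer of the Fos and Jun families, has the consensus TGACTCA. The word searched for it, TGANTCA, also takes in TGAATCA, and shares without that form were not counted. The word searched was found in 89 members (27.6%, interval 23.0 to 32.7), 14.1% of flanks (interval 11.7 to 17.0) and 14.5% of windows. The E-box CAGCTG, bound by basic helix-loop-helix factors, was found in 121 members (37.5%, interval 32.4 to 42.9), 20.8% of flanks (interval 17.8 to 24.1) and 18.4% of windows. Of 109 AP-1 matches in members, 89 read TGACTCA and 20 read TGAATCA, on 1 strand or the other. Both words stood above flanks and windows in each bin of GC content looked at. For AP-1 at 50 to 55% GC it was 37 of 116 members (31.9%), 13 of 108 flanks and 12.7% of windows. Members that held both words were 9.91%, against 1.86% of flanks and 2.76% of windows. Each word alone was also more frequent in members, and whether they occur together more often than their single shares give was not tested. Neither of them nor the CTCF word was found in 34.7% of members and 65.7% of flanks. Distal peaks between genes had similar shares, 25.8% for AP-1 and 36.9% for the E-box. Scores did not separate members with and without these words, with medians of 18.35 and 18.30 for AP-1 and of 18.62 and 18.28 for the E-box. All members shown above with both words had scores between 15.83 and 35.81.

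**Figure D5:**
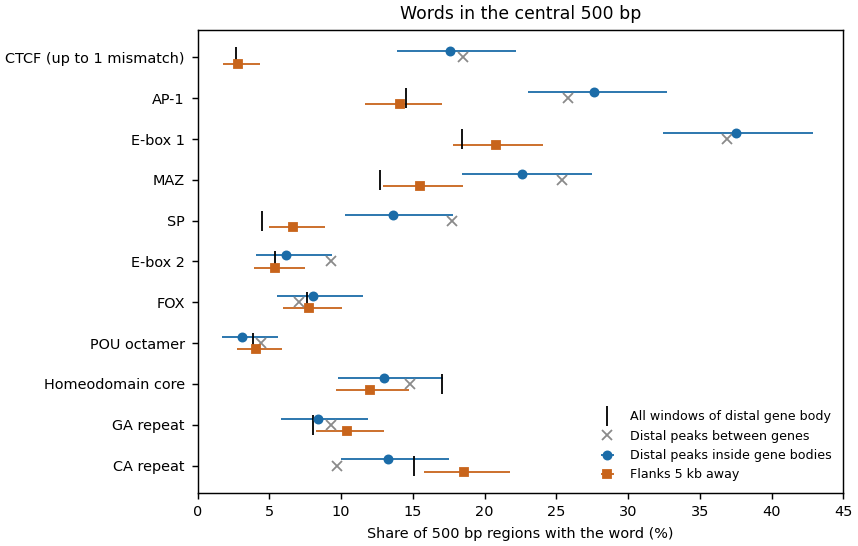
Share of 500 bp regions with each word (%, horizontal axis) in distal gene-body peaks (circles) and their flanks (squares), both with 95% Wilson intervals over regions, in all windows of distal gene body (bars) and in distal peaks between genes (crosses). E-box 1 is CAGCTG and E-box 2 is CACGTG. CTCF, AP-1 and E-box 1 lie well to the right of flanks, at 17.6%, 27.6% and 37.5%.

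The GC-rich words were also more frequent than in flanks, though the MAZ word was not so at every GC content. The MAZ word GGGAGGG was found in 22.6% of members, 15.5% of flanks and 12.7% of windows. By GC content, it was found in 9.38% of members and 10.8% of flanks under 45%, in 22.4% and 15.2% at 45 to 50%, and in 30.2% and 18.5% at 50 to 55%. At 55% GC or more the order was turned around, with 22.2% of members, 35.8% of flanks and 33.4% of windows. The SP word GGGCGG, typical of CpG-rich promoters, was found in 13.6% of members, 6.68% of flanks and 57.2% of peaks within 1 kb of a coding TSS. Its share in members and flanks was 10.9% (7 of 64) and 2.45% under 45% GC, 5.61% and 4.57% at 45 to 50%, where windows held it in 6.45%, 15.5% and 13.9% at 50 to 55%, and 36.1% and 22.6% at 55% or more. The E-box CACGTG was found in 6.19% of members and 5.43% of flanks.

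The octamer ATGCAAAT is 1 of the words bound by factors of the POU family, which includes neural transcription factors, and no other POU word was searched. It was found in 10 members (3.10%, interval 1.69 to 5.60), 4.04% of flanks and 3.89% of windows, and the homeodomain core TAATTA in 42 of 323 members, 77 of 644 flanks and 17.0% of windows. The FOX word TGTTTAC was found in 8.05%, 7.76% and 7.61%. Intervals of members and flanks overlapped for these 3 words. The repeat CACACACA was found in 13.3% of members, 18.6% of flanks and 15.1% of windows, the repeat GAGAGAGA in 8.36%, 10.4% and 8.05%, and the palindromic NRF1 consensus in no member (0 of 323, upper limit of the interval 1.18%). A match, or its absence from these windows, is a description of letters and says nothing of whether the factor was bound.

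Exact matches of at least 12 bases to any of the 10 *Dali* capture oligonucleotides were found in 27 members (8.36%, interval 5.81 to 11.9), 14 of 644 flanks (2.17%, interval 1.30 to 3.62) and 93 of all peaks (6.52%). Of these 27, 14 matched linc8-C-oligo30, whose matches of 10 bases were found in 61 members (18.9%) and 7.61% of flanks. Matches of 10 bases to any of the 10 were found in 191 members (59.1%, interval 53.7 to 64.4) and 26.1% of flanks (interval 22.8 to 29.6). The *lacZ* oligonucleotide had a match of 10 bases in no member and in 5 flanks (0.776%), and the sense oligonucleotide in 15 members (4.64%) and 8 flanks (1.24%). Peaks were called against the *lacZ* pull-downs, so the *lacZ* oligonucleotide is no independent comparison. Nor is the sense oligonucleotide, which holds the reverse complement of linc8-C-oligo27. Both strands were searched, so its counts take in the matches of 10 bases to linc8-C-oligo27 (12 members and 4 flanks). Matches of 12 bases or more lay a median of 133 bp from the midpoint. The score did not rise with the length of the match. Its median was 18.46 in the 132 members with at most 9 matched bases, 19.11 with 10, 17.95 with 11 and 16.36 with 12 or more. After the stretches printed above, in *Atg4a*, *Tln2* (24.05), *Auts2* (20.18) and *Tcea3*, a transcription elongation factor (15.95), the remaining match of 13 bases was in *Magi2*. Among members with 12 matched bases were *1700029H14Rik*, to cons1-2, and *Rere*, to linc8-C-oligo11. Whether such matches took part in the recovery of these regions was not tested.

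Some members lay at starts of transcripts that do not code for protein. A TSS of any transcript, non-coding forms included, was within 1 kb of 14 members (4.33%, interval 2.60 to 7.14), with scores from 10.93 to 30.82. The highest were in *Ablim1*, an actin-binding LIM protein (30.82, 461 bp from such a TSS), and *Dgki* (27.43, 8 bp). With start sites of every transcript counted, 249 peaks met the limit of 10 kb. The member in intron 14 of *Dnm3*, a dynamin of synapses, at chr1:164147566-164148092 (score 16.54), overlapped the non-coding gene *Dnm3os*, 20 bp from a TSS, and the microRNA gene *Mir199a-2*. A microRNA represses messenger RNAs that pair with its seed, bases 2 to 8. The mature products of *Mir199a-2* are given from RefSeq (GRCm38.p6), with the seed in capitals, to identify the transcript under the peak.
mmu-miR-199a-5p: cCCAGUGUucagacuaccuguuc
mmu-miR-199a-3p: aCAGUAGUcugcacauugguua
No other member overlapped a microRNA gene, and 7 members, this one included, lay within 10 kb of one. Genes of other biotypes were overlapped by 15 members in all (4.64%).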

How the data were processed

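DNA recovered by CHART from 3 *Dali* pull-downs of N2A cells was sequenced by the authors in paired ends, aligned to mm9 with Bowtie and searched for peaks with MACS2 against input and *lacZ* controls (versions not given in the sources used here). The authors deposited 1 list for the pull-downs together, with 1 score per peak whose unit the list does not name. Peaks were assigned to GENCODE M1 genes by midpoint and overlap. The limit of 10 kb, the members and the gene and word lists were chosen with earlier results of these data known. Flanks lay 5 kb to either side and were left out where over 50% of bases were unknown. Words were searched on both strands of the central 500 bp, and oligonucleotide matches over the whole width. Positions, forms and printed pairs of AP-1 and E-box words were taken only where they lay inside the peak. Named genes were the 10 highest scores and 5 widest members, hosts of 3 or more, the 10 highest exact CTCF matches, the 5 highest over coding exons, 3 on each side of the limit, up to 5 hosts per list and the 5 longest oligonucleotide matches. Some of these are not reported here, among them those of 2 lists. Others were picked after their values were seen. Calculations were made in Python 3.11.15 with pandas 2.3.3, numpy 2.4.6 and scipy 1.17.1, plots with matplotlib 3.10.9, and the scripts were tested on simulated data. No read counts were used, so depth per sample is unknown.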

Additional observations from a re-analysis of the deposited data

How the results depend on the processing

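Of 43 alternative settings, 31 left a share, median or ratio of densities within the main value's interval or a count within 1.5 times, 10 moved it further and 2 turned its direction. With scores at or above the median of all peaks, 153 members were left. Counting midpoints only, 97.52% of members overlapped no exon. The GC difference from flanks was 4.539 percentage points with flanks 50 kb away and 3.2 in the central 500 bp. The CTCF word was found in 5.573% of members and 0.621% of flanks without a mismatch, and in 5.882% and 0.311% in the central 100 bp. Oligonucleotide matches were found in 59.13% of members and 26.1% of flanks at 10 bases, and in 0.6192% and 0% at 14 bases. The ratio of densities inside and between genes was 4.828 under 40% GC and 1.137 at 45 to 50%, and turned to 0.8139 at 50 to 55% and 0.5665 at 55% or more. The bins of GC content and the setting without *Gm20388* were chosen after seeing the data. The cause of these shifts was not tested.

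No paired analysis was possible because the list holds 1 value per peak for the 3 pull-downs, and leaving out each pull-down was not run for the same reason. A share of soft-masked repeats was not run, since the sequence used here is in upper case throughout. Read depth is unknown.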

Other observations

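A few hosts outside the lists, picked after their values were seen, belong to neural biology. *Lmo1*, a LIM-domain transcription co-factor known as an oncogene in neuroblastoma, held a member with a score of 31.03. *Ntrk3*, the receptor for neurotrophin-3, held 1 with a score of 10.96, 992 bp from a TSS of a transcript that does not code for protein. *Auts2*, a gene of neuronal development, held a member with a score of 20.18 that overlapped a coding exon. Their scores lie within the range of the other members, and no comparison was made.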
